A study of Mus musculus with 4 samples.

Results

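Mitochondrial ribosomal protein genes were taken as the protein-coding genes of the mouse annotation (GRCm38 RefSeq) whose symbols start with Mrpl or Mrps followed by a digit. The rule gave 78 genes of 21883 protein-coding genes, on 17 chromosomes, with 11 of them on chromosome 11 and 8 on chromosome 17. They were divided by symbol into 51 genes of the large subunit and 27 of the small subunit, with Mrps18a and Mrps30 placed in the large subunit by the known structure. No other gene was moved, so Mrps36 was counted in the small subunit by its symbol alone. The regions of these genes were the merged open-chromatin regions within 1 kb of either end of a member, which gave 75 of 15328 merged regions. Another 7675 regions lay at the ends of other protein-coding genes, so that 7750 gene-edge regions in all served for comparison. The rule for the genes uses their symbols alone.

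The mitochondrial ribosome translates the few proteins encoded by mitochondrial DNA, all of them membrane subunits of the respiratory chain and ATP synthase. Its RNAs come from mitochondrial DNA, whereas every one of its proteins is encoded in the nucleus, made in the cytosol and imported, so that its supply depends on many scattered nuclear promoters. Some of its proteins descend from the bacterial ribosome and others are found only in mitochondria. Maturing red cells need respiratory chain activity and mitochondrial haem synthesis before they clear their mitochondria.

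The assay was ATAC-seq, in which a transposase cuts and tags accessible DNA, in G1ER cells, a mouse erythroblast line derived from Gata1-null cells that carries a hormone-inducible Gata1 fused to an oestrogen receptor domain. The study compared wild-type cells with cells lacking Chd7, a gene for an ATP-dependent chromatin remodeller, with 2 libraries of each genotype made from 50000 cells. All 4 libraries came from cells labelled as untreated and grown with erythropoietin and stem cell factor. In each genotype library 1 is labelled 1 h and library 2 is labelled 2 h, and the protocol gives 1 to 2 h of transposase treatment without tying the labelled time to it, so replicate number and time are the same split. Both knockout libraries carry 1 code, so genotype and clone cannot be told apart, and nothing states that the replicates were separate cultures, so p-values measure only the spread between these libraries. The deposited lists hold 11084 and 12043 peaks in the wild type and 12443 and 11376 in the knockout, and total read depth was not given in the sources used here. The summit pileup, the number of reads or fragments stacked at a peak's highest point, was recovered from each peak's deposited fold enrichment and p-value. No region lay within 1 kb of an end of Chd7, so its chromatin gave no check of the genotype labels. Of the erythroid marker genes, Tal1 had a region in 3 libraries and Epor, Tfrc, Nfe2 and Kel had one in all 4. No region was listed at the ends of Gata1, Klf1, Alas2, Slc4a1, Hba-a1 or Hbb-bt. None of 6 myeloid, 6 lymphoid and 4 mast cell markers had a region, and 1 of 5 megakaryocyte markers, Gp9, did.

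Mitochondrial ribosomal protein promoters often faced the promoter of another gene. Of the 69 members with a start site in the RefSeq promoter table (GRCm38.p6), 24 (34.8%) had the start of another protein-coding gene within 1 kb upstream on the opposite strand, against 8.48% of all 17491 genes in the table and 20.8% of the 5779 genes with a region called in all 4 libraries. Among the 75 member regions, 37 (49.3%) touched the ends of 2 or more protein-coding genes, against 19.9% of gene-edge regions. The pairs joined mitochondrial functions in several cases. Mrpl46 and Mrps11, a large and a small subunit gene, started 42 bp apart and shared 1 region, the only one shared by members. Mrps12, whose bacterial counterpart lies at the decoding centre, started 147 bp from Sars2, the mitochondrial seryl-tRNA synthetase. Mrpl43 started 116 bp from Twnk, the helicase that replicates mitochondrial DNA, and Mrpl47 308 bp from Ndufb5, a complex I subunit. Other partners act elsewhere: Fau, 192 bp from Mrpl49, encodes a fusion that yields a cytosolic ribosomal protein, and Helq, 159 bp from Mrps18c, encodes a DNA helicase.

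The sequences of these paired promoters are shown because 1 open region spanned both starts, and because Mrpl43 and Mrps18c also had the smallest p-values of the genotype comparison described further on. Each window runs 5′ to 3′ on the strand of the member, from 250 bases before to 50 bases after its start, and is taken from RefSeq GRCm38.p6. Capitals mark exact matches, on either strand, to CCGGAAG (the ETS word), GCGCATGCG (NRF1), AAGATGGCG (YY1), TCTCGCGA, CCAAT (the NF-Y box) or GGGCGG (SP/KLF). The windows were chr19:45006393-45006692 (minus strand) for Mrpl43, chr5:100798509-100798808 (plus) for Mrps18c, chr7:28741772-28742071 (minus) for Mrps12, chr7:78782881-78783180 (plus) for Mrps11 and chr19:6057706-6058005 (minus) for Mrpl49.
Mrpl43: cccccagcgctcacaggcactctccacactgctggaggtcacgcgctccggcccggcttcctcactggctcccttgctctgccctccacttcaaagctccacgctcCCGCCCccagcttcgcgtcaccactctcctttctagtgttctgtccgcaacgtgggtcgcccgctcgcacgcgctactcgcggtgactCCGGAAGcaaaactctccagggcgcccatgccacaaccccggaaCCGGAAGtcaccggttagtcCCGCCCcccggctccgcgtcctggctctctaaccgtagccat
Mrps18c: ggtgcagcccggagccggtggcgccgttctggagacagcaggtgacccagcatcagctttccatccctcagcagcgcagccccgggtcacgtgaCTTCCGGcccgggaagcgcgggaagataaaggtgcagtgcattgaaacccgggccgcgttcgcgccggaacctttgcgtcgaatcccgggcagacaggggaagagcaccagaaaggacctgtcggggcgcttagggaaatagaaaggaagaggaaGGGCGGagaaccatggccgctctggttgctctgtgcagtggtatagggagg
Mrps12: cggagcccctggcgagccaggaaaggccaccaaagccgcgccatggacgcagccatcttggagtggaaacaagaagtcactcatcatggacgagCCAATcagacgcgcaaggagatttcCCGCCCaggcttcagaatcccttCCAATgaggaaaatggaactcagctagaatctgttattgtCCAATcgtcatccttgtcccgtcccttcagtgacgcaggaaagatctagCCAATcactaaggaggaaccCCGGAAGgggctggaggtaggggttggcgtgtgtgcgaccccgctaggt
Mrps11: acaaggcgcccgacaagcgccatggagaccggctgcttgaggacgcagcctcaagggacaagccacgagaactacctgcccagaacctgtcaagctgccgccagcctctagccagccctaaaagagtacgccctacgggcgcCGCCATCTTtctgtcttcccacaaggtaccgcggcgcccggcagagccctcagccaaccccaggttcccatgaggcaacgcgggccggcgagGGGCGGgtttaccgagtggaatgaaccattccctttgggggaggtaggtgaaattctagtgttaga
Mrpl49: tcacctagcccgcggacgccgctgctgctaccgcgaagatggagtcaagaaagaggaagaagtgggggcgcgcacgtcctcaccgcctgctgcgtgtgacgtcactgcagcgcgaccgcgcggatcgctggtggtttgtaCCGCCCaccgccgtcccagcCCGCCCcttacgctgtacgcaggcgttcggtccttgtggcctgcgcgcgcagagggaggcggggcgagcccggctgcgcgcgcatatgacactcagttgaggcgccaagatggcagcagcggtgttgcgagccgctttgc
Mrpl43 held 2 ETS words, 56 and 12 bases before its start, and 2 SP/KLF words. Mrps18c held 1 ETS word on the opposite strand. It also held a GATA word (AGATAA) and an E-box (CACGTG), 133 and 163 bases before its start, which are not among the capitalised words. Mrps12 held 4 NF-Y boxes with 1 ETS word just after its start. Mrps11 held a YY1 word on the strand of its partner Mrpl46, and Mrpl49 held 2 SP/KLF words and no ETS word.

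Over the 69 members with a promoter window, words of ETS, NRF1 and YY1 were more common than over all genes. The ETS word was in 26 members (37.7%), against 12.9% of all 17491 genes and 25.6% of the genes with a region called in all 4 libraries. The NRF1 word was in 7 members (10.1%), against 2.61% and 5.64% of the same sets, and the YY1 word in 8 members (11.6%), against 2.14% and 4.79%. NRF1, YY1 and the ETS factor GABPA are known as regulators of nuclear genes for mitochondrial proteins. The NF-Y box was in 39.1% of members against 42.3% of all genes, the E-box CACGTG in 7.25% against 8.91%, the RUNX word TGTGGT in 13.0% against 17.2%, and the TATA word TATAAA in 7.25% against 14.8%. The GATA word AGATAA was in 15.9% of members, against 11.2% of all genes and 6.68% of genes with a region in all 4 libraries. Among the 46 members with such a region it was in 10.9%. Among the 23 members without one it was in 26.1%, against 13.5% of all 11712 genes without one. TCTCGCGA was in 1 member (1.45%), against 1.59% of all genes. Matches to different words overlapped in 3 of the 75 member windows. A match is a string of letters in the reference, not a measured binding site, and none of these shares was tested.

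**Figure D1:**
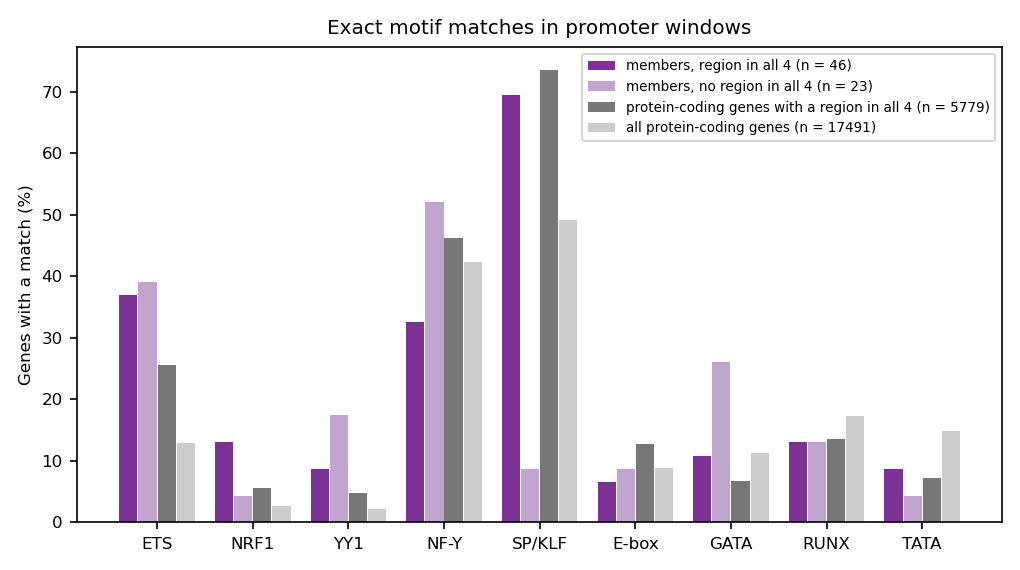
Share of genes (y axis, %) whose 300-base promoter window holds each word on either strand (x axis), for the 46 members with and the 23 members without a region in all 4 libraries, for the 5779 protein-coding genes with such a region and for all 17491. The ETS word stands at 37.0% and 39.1% of the members, against 25.6% and 12.9%, and the SP/KLF word at 69.6% and 8.70%, against 73.6% and 49.2%.

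The SP/KLF word GGGCGG went with whether a member's region was called in every library. It was in 34 of 69 members (49.3%), close to the 49.2% of all genes. Among the 46 members with a region called in all 4 libraries it was in 32 (69.6%), near the 73.6% of all such genes. Among the 23 members without one, which include Mrpl22 since only gene ends were counted, it was in 2 (8.70%), against 37.2% of the 11712 other genes without one. Either gene end counted, so the 46 include Mrpl58, whose region called in all 4 libraries lay at its 3′ end. The ETS word was in 37.0% of the 46 members and 39.1% of the 23. A start facing another gene's start was found in 21 of those 46 members (45.7%) and in 3 of those 23 (13.0%). Median GC content of the windows was 60.3% and 55.3%, and the part of base composition in the split was not tested.

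Open chromatin was found at most of the genes. Of the 78 members 70 (89.7%, 95% exact binomial interval 80.8% to 95.5%) had a region at an end in at least 1 library, against 39.0% of all protein-coding genes, and 51 (65.4%) had one called in all 4 libraries, against 32.0%. The shares were 84.4% and 73.3% of 90 cytosolic ribosomal protein genes and 88.0% and 72.0% of 100 respiratory chain and ATP synthase genes. In the large subunit 45 of 51 genes had a region and 32 had one in all 4 libraries, and in the small subunit 25 of 27 and 19. Of 45 members with a counterpart in the bacterial ribosome 39 had a region and 25 (55.6%) had one in all 4 libraries. Of 31 mitochondria-specific members 29 had a region and 25 (80.6%) had one in all 4. The 2 paralogs Mrps18a and Mrps18b, kept apart from both classes, both had a region, in all 4 libraries at Mrps18b and in 3 at Mrps18a. The difference between these classes was not tested.

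No region lay within 1 kb of the outermost annotated ends of 8 members: Mrpl4, Mrpl16, Mrpl22, Mrpl24, Mrpl28 and Mrps2, which have bacterial counterparts, and the mitochondria-specific Mrpl53 and Mrps23. For 3 of these a start in the RefSeq promoter table lies further inside the gene and was covered by a region. At Mrpl22 that region (chr11:58171479-58171806) was called in all 4 libraries, with pileups of 10 and 15 in the wild type and 14 and 11 in the knockout. At Mrps23 (chr11:88204114-88204504) it had 11 and 15 in the wild type and 16 in the second knockout library, and at Mrps2 (chr2:28467899-28468236) 13 and 12 in the wild type and no peak in the knockout. Counting regions within 1 kb of such starts as well, a choice made after the values were seen, 73 of 78 members (93.6%) had a region, against 41.6% of all genes. By gene ends, the limit of 1 kb fell between the nearest regions of Mrpl18 and Mrps31, 994 and 863 bp away, and those of Mrpl22, Mrpl4 and Mrps2, 1318, 1334 and 1948 bp away. Absence from a list means that no peak was called and does not show closed chromatin. Another 6 members had 2 regions each: Mrpl1, Mrpl2, Mrpl41, Mrpl58, Mrps18b and Mrps35.

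Of the 75 member regions 51 (68.0%) were called in all 4 libraries, against 76.8% of gene-edge regions, and 8 each were called in 3, 2 and 1 libraries. The first wild-type library called 63 of the 75 (84.0%, exact interval 73.7% to 91.4%) and the second 70 (93.3%, 85.1% to 97.8%). The knockout libraries called 60 (80.0%, 69.2% to 88.4%) and 59 (78.7%, 67.7% to 87.3%). The same shares over all gene-edge regions were 87.0%, 90.6%, 88.6% and 85.6%. These intervals cover counting error over regions only. The same 75 regions were scored in all 4 libraries, and each entered the set by being called in at least 1 of them. The intervals therefore do not compare libraries or genotypes.

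Member peaks covered a wide range of strength around the middle of all gene-edge peaks. The median percentile of fold enrichment among members was 61.9 and 62.7 within the 2 wild-type lists and 65.5 and 56.5 within the 2 knockout lists, against 62.1, 63.4, 64.4 and 62.9 for gene-edge regions. Fold enrichment here is the authors' own value per peak. The strongest region lay at the 5′ end of Mrps18b (chr17:35916225-35917059), with pileups of 80 and 78 in the wild type and 84 and 84 in the knockout. It also touched Ppp1r10, a phosphatase regulatory subunit whose start lies 756 bp away, and its summit lay 329 bp upstream of the Mrps18b start.

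Next came Mrps14, a small subunit protein with a bacterial counterpart, with 62 and 71 in the wild type against 69 and 56 in the knockout. Mrpl17 had 55 and 62 against 56 and 51, and Mrps28 had 53 and 51 against 53 and 45. Mrpl2, whose bacterial counterpart lies near the peptidyl transferase centre, had 54 and 51 against 53 and 44. In these 4 regions the ranges of the genotypes overlapped. The weakest region called in all 4 libraries was the one shared by Mrpl46 and Mrps11, with 11 and 11 in the wild type and 12 and 12 in the knockout. Mrpl21 had 10 and 15 against 11 and 11, Mrpl23 had 10 and 14 against 15 and 13, and Mrpl10, a protein of the ribosomal stalk, had 13 and 13 against 14 and 15. A small region at the 3′ end of Mrps18b, which also touched Atat1, a tubulin acetyltransferase, had 17 and 12 against 13 and 7. In unscaled pileup the genotypes did not overlap at the shared region and at Mrpl10 and overlapped at the other 3. With values centred on each library's median, Mrpl10 overlapped too, the first knockout library lying below the first wild-type library (-0.0115, log2). On centred values both knockout libraries lay above both wild-type libraries at 21.4% of all tested regions. All 5 weakest regions rested on fewer than 18 reads or fragments in every library.

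**Figure D2:**
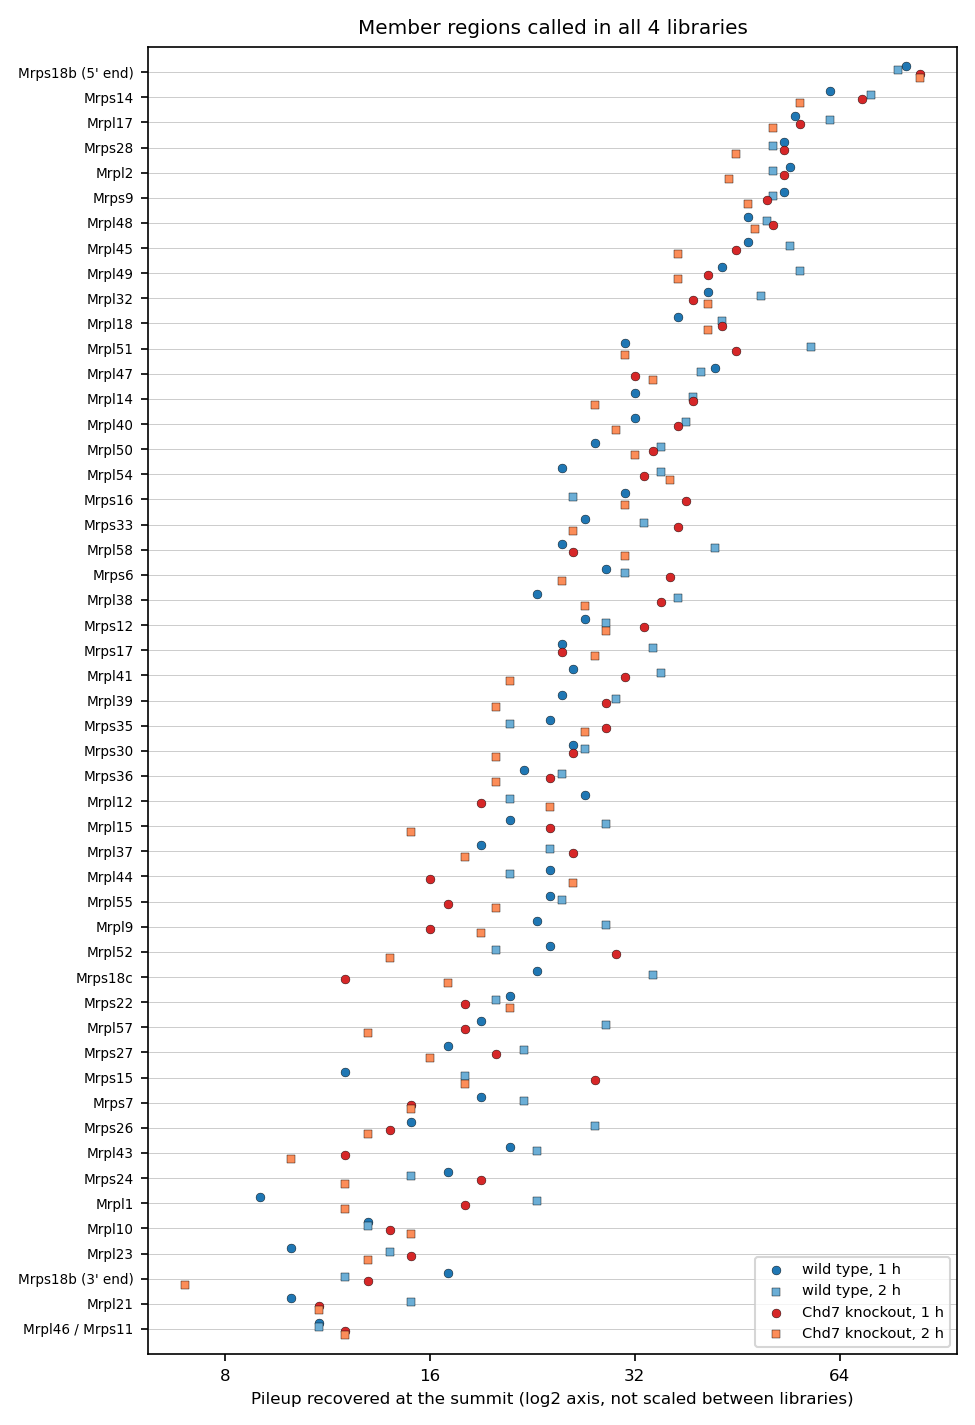
Summit pileup (x axis, log2 scale, reads or fragments, not scaled between libraries) of each of the 51 member regions called in all 4 libraries (y axis, ordered by strength), with 1 point per library, blue for wild type and red for knockout. Values run from 7 at the 3′ end of Mrps18b to 84 at its 5′ end, and blue and red points interleave at most members.

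Summits sat just upstream of the start sites. For 47 pairs of a member with a start site and a region called in all 4 libraries, the median summit lay 41.5 bp upstream, 37 lay within 100 bp and 43 within 250 bp, and 38 lay upstream. The median offset was -32 and -36 bp in the wild type and -47 and -38 bp in the knockout. Summits of the same region differed between libraries by a median of 56 bp, and by 255 bp at Mrpl23, and the offsets were not tested between genotypes. Mrpl51, at 448 bp upstream, had its summit nearer to the start of Ncapd2, a condensin subunit, which lies 614 bp away. The summits of Mrps18c, Mrps7, Mrpl18, Mrpl49, Mrps12, Mrpl50 and Mrps11 also lay nearer to a facing gene's start than to the member's own. At Mrps18c the summit lay 149 bp upstream and the start of Helq 159 bp. At the other paired members, Mrpl43 among them (38 bp, with Twnk at 116 bp), the summit lay nearer to the member's own start. At Mrpl58, a peptidyl-tRNA hydrolase of the large subunit, the region called in all 4 libraries lay at the 3′ end and the one at the 5′ end was called in 3 libraries, with pileups of 12, 10 and 13 in the 2 wild-type libraries and the first knockout library.

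**Figure D3:**
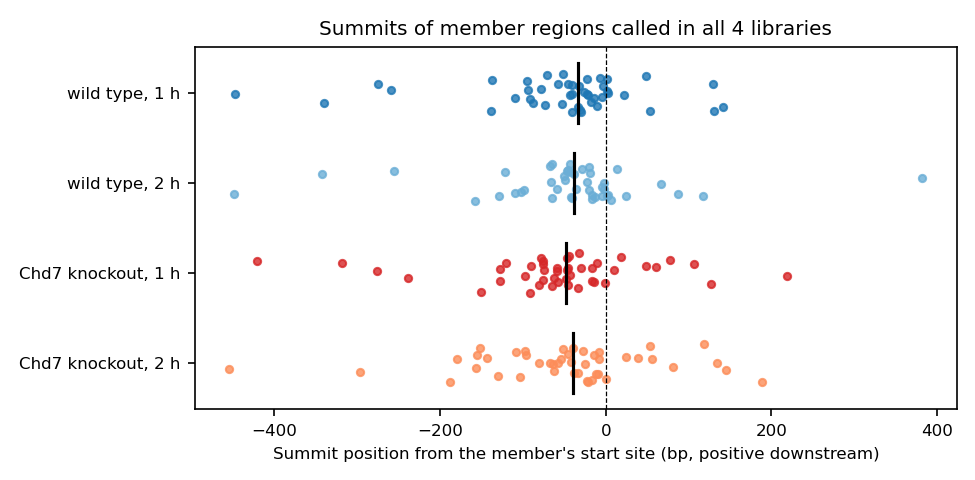
Position of the summit relative to the member's start (x axis, bp, positive downstream) in each library (y axis), for 45 of 47 pairs, with black lines at the medians of the pairs drawn. The 3′-end regions of Mrpl58 and Mrps18b lie beyond the 600 bp shown, and most points of all 4 libraries fall within 100 bp of the start.

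The 24 regions missing from at least 1 list were weak. Their pileups ran from 8 to 26 with a median of 12, against a median of 26.5 for regions called in all 4 libraries, and their median width was 354.5 bp against 652 bp. Called in 3 libraries were the regions of Mrpl30, Mrpl34, Mrpl27, Mrpl42, Mrpl19, Mrps10 and Mrps18a and the 5′ region of Mrpl58. Called in 1 library of each genotype were those of Mrpl13, Mrpl20, Mrpl36 and Mrps21. The strongest of all was at Mrpl20, with 26 in the second wild-type library and 13 in the first knockout library and no peak in the other 2. A single wild-type library called Mrpl11, Mrps5, Mrpl35 and the second regions of Mrpl2 and Mrps35, and a single knockout library called Mrps34, Mrpl33 and the second region of Mrpl1.

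Peaks in the 2 wild-type libraries alone were found at 4 member regions (5.33%, exact interval 1.47% to 13.1%), against 1.77% of gene-edge regions and 2.25% of all regions. The reverse pattern was found at 0 member regions, against 1.05% of gene-edge regions and 2.71% of all regions. The second region of Mrpl41, near Pnpla7, a lysophospholipase gene, had pileups of 15 and 20. Mrps25 had 10 and 14, Mrps31 had 8 and 10, and Mrpl3, a core protein of the large subunit, had 8 and 11. The fold enrichments of these peaks, the authors' values, were 4.71 to 5.78, which placed them between the 5.44th and 22.0th percentile of their lists, and no value exists for the knockout. With a gene edge of 500 bp the count was 2 of 69 (2.90%), against 1.60% of gene-edge regions. With starts of the promoter table counted as well it was 5 of 79 (6.33%), Mrps2 being added, against 1.88%. By gene ends, 3 regions of this kind cover a member's start, those of Mrpl3, Mrps25 and Mrps31, and the added region of Mrps2 covers one too. The windows of Mrpl3 (chr9:105053018-105053317, plus strand) and Mrps25 (chr6:92183974-92184273, minus strand) are shown, with capitals as above.
Mrpl3: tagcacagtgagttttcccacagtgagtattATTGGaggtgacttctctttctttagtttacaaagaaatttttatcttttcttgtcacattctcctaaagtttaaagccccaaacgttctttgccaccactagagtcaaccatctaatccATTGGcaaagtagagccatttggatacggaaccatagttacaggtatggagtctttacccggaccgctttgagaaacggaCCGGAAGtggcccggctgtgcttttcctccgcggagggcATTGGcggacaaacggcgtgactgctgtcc
Mrps25: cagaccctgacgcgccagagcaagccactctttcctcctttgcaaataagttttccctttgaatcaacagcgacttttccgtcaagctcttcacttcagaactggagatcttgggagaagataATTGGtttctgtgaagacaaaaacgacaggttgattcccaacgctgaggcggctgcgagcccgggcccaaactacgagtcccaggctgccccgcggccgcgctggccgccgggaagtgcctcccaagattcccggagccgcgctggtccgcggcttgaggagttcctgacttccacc
Of the capitalised words, Mrpl3 held an ETS word 19 bases before its start and 3 NF-Y boxes, and Mrps25 a single NF-Y box. The GATA word AGATAA, which is not among the capitalised words, lay 178 bases before the start of Mrpl3 and 132 before that of Mrps25. The windows of Mrps31 and Mrps2, which are not shown, held no GATA word. None of these windows held the SP/KLF word.

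**Figure D4:**
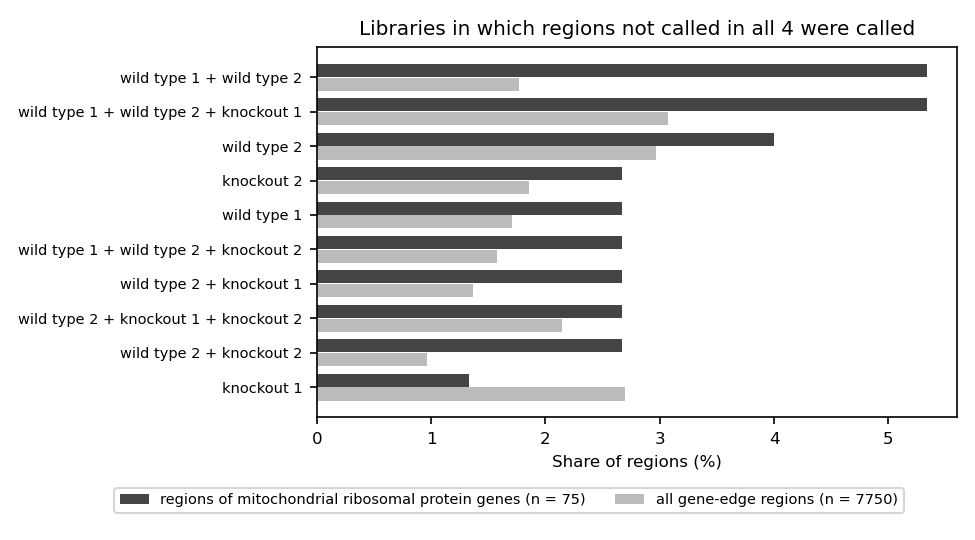
Share of regions (x axis, %) called in each combination of libraries other than all 4 (y axis), for the 75 member regions (dark) and the 7750 gene-edge regions (light). The dark bar for both wild-type libraries alone stands at 5.33% against 1.77%, and no member region was called in both knockout libraries alone.

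The genotypes were compared at the 51 member regions called in all 4 libraries, within a fit over all 8704 such regions. Values were log2(pileup + 1) centred on each library's median, and limma's adjusted p was taken over all 8704. No member passed the threshold of 0.05, and neither did any other region (0% called), with a smallest adjusted p in limma of 0.297 among members and 0.213 among all. At an unadjusted p under 0.05, 4 members had lower and 1 had higher values in the knockout, that is 7.84% and 1.96% of 51, against 3.68% and 5.02% of all tested regions. The knockout minus wild-type difference was negative at 31 members and positive at 20, with a median of -0.02, against 0.02 over all tested regions and -0.0027 over gene-edge regions. Both knockout values lay below both wild-type values at 10 members (19.6%), against 17.3% of all tested regions, and above them at 10 (19.6%), against 21.4%. Over gene-edge regions these shares were 18.8% and 18.3%. Libraries of 1 genotype differed by a median of 0.21 in the wild type and 0.24 in the knockout at members, on the same log2 scale.

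The lowest p belonged to Mrpl43, a mitochondria-specific protein of the large subunit, at the region it shares with Twnk (chr19:45006289-45006756). Its pileups were 21 and 23 in the wild type and 12 and 10 in the knockout, so that the genotypes did not overlap. The difference was -0.86 ± 0.18 (SE; limma's adjusted p = 0.297, 2 libraries per genotype), with -0.87 between the 1 h libraries and -0.85 between the 2 h libraries. Mrps18c, 1 of 3 mammalian counterparts of a single bacterial protein, had 23 and 34 in the wild type and 12 and 17 in the knockout at the region it shares with Helq (chr5:100798134-100798887). Here too the genotypes did not overlap, with a difference of -0.84 ± 0.24 (SE; limma's adjusted p = 0.387), or -0.52 without the first knockout library. The Mrps18c summits lay at -110 and -41 bp from its start in the wild type and at -276 and -188 bp in the knockout. The pileups compared there were thus taken at different positions. At Mrpl43 the summits lay at -18 and -29 bp against -47 and -180 bp. Scaling the libraries by their lowest background in place of the median moved all tested regions by a median of -0.21, and brought these 2 members, alone among the 51, past the threshold, with -1.09 at Mrpl43 and -1.07 at Mrps18c (limma's adjusted p = 0.00945 and 0.0115). Under it 70 of 8704 regions (0.804%) passed, 65 lower and 5 higher in the knockout. The lowest background was 0.787 in the first wild-type library, 1.08 in the second, and 1.04 and 1.01 in the knockout libraries. In this fit limma's SE was the same 0.255 at both members, so their p-values do not use each region's own spread between libraries. Relative to the shift the differences of the 2 members were -0.88 and -0.86.

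In the opposite direction, Mrps15, a small subunit protein with a bacterial counterpart, had 12 and 18 in the wild type and 28 and 18 in the knockout (chr4:126046738-126047354). The pileups met at 18, and the centred values did not overlap. The difference was 0.66 ± 0.22 (SE; limma's adjusted p = 0.430), with 1.05 at 1 h and 0.27 at 2 h, and it was 0.44 without the first knockout library. Its promoter, chr4:126046678-126046977 on the plus strand, is shown as that of the largest positive difference among members.
Mrps15: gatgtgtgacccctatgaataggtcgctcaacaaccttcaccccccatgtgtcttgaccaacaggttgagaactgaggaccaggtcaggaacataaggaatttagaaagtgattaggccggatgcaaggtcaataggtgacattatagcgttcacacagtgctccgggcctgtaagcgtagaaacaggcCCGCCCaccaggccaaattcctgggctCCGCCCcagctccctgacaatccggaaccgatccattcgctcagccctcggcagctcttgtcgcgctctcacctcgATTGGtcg
It held 2 SP/KLF words before its start and an NF-Y box after it, and no ETS word.

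The other members with the smallest p-values were split between directions. Lower values in both knockout libraries were found at Mrpl57 (19 and 29 against 18 and 13), which faces Ska3, a spindle and kinetochore gene, and at Mrpl9 (23 and 29 against 16 and 19). The same held at Mrps26 (15 and 28 against 14 and 13) and at Mrps7 (19 and 22 against 15 and 15), whose partner Gga3 encodes a Golgi sorting protein. Their differences were -0.51, -0.46, -0.49 and -0.34. Leaving out 1 library moved 3 of them by over 1.5 times, to -0.32 at Mrpl57 and -0.17 at Mrps26 without the second wild-type library, to -0.81 at Mrps26 without the first, and to -0.26 at Mrpl9 without the first knockout library. Higher centred values in both knockout libraries were found at Mrps35 (24 and 21 against 29 and 27) and at Mrps16 (31 and 26 against 38 and 31), with differences of 0.39 and 0.35. These became 0.19 and 0.12 without the second wild-type library and 0.59 and 0.58 without the first. The 3′-end region of Mrps18b, at -0.45, had overlapping genotypes, and ran from -0.79 without the second wild-type library to -0.11 without the first and -0.13 without the second knockout library. None of these 7 passed the test, with limma's adjusted p between 0.534 and 0.710.

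**Figure D5:**
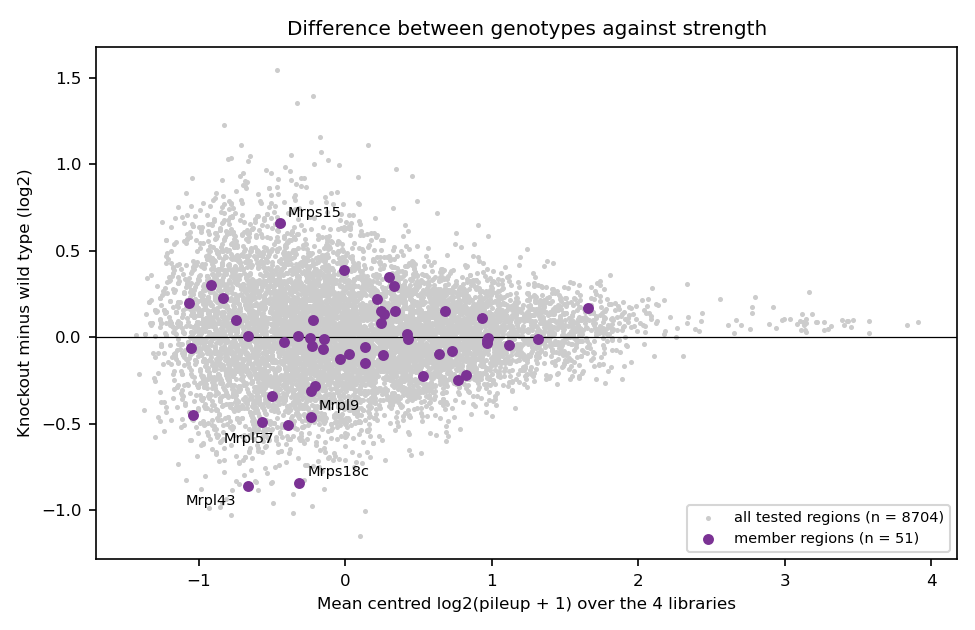
Difference between genotypes (y axis, knockout minus wild type, log2) against mean centred log2(pileup + 1) over the 4 libraries (x axis) for all 8704 tested regions in grey and the 51 member regions in purple, with the 5 smallest p-values among members named. Mrpl43 and Mrps18c lie lowest at -0.86 and -0.84, Mrps15 highest at 0.66, and the members spread within the cloud of all regions.

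Medians by subunit and by origin lay near 0. The median difference was -0.06 over 32 gene and region pairs of the large subunit, 11 positive and 21 negative, and -0.00012 over 20 of the small subunit, 10 of each sign. Bacterial-type and mitochondria-specific members had medians of -0.02 and -0.01 over 25 pairs each. Between the 1 h libraries the member median was 0.0044, and between the 2 h libraries -0.04, against 0.01 and 0.02 over all tested regions. At 13 of 51 members (25.5%) the difference was negative at both times and at 10 (19.6%) positive at both, against 24.9% and 29.6% of all tested regions and 26.9% and 26.2% of gene-edge regions.

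Genes that act with the mitochondrial ribosome were described alongside its proteins. Of 64 such genes 56 had a region and 44 had one in all 4 libraries, and none of their 47 tested regions passed the test (20 positive, 27 negative, median -0.02, smallest limma adjusted p 0.365). Among 5 mitoribosome proteins with other symbols, Dap3 had a difference of -0.34, Aurkaip1 -0.22 and Ptcd3 0.04, Chchd1 was listed in the second knockout library alone, and Gadd45gip1 had no region. Among 11 translation factors 10 had a region and 4 had one in all 4 libraries. Of these 4, the recycling factor Mrrf had 0.28, the elongation factors Gfm1 and Tufm 0.26 and -0.02. Guf1 was listed in the 2 wild-type libraries alone, with pileups of 10 and 14, and Mtif2, Tsfm, Gfm2, Mtrf1 and Oxa1l were missing from 1 or 2 lists.

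Among 19 assembly factors 16 had a region and 13 had one in all 4 libraries, with differences of -0.54 at the GTPase Mtg1, 0.42 at Fastkd2 and 0.40 at Mterf4, while Dhx30, Mrm1 and Mrm2 were missing from at least 1 list. Among 17 mitochondrial tRNA synthetases 15 had a region and 14 had one in all 4, all but Cars2, with 0.43 at Vars2, -0.37 at Fars2 and 0.35 at Wars2. Among 12 genes of mitochondrial transcription and its nuclear regulators 11 had a region and 10 had one in all 4. The largest difference of the 64 genes was at Pprc1, a coactivator of the PGC-1 family, with 16 and 26 in the wild type against 9 and 11 in the knockout (-0.89; limma's adjusted p = 0.365). Nrf1, whose protein binds the NRF1 word, had 20 and 19 against 11 and 15 (-0.48). At both genes, named for the smallest p-values of their list, the unscaled pileups of the genotypes did not overlap. On centred values both knockout libraries lay below both wild-type libraries at 17.3% of all tested regions. Tfb2m, a mitochondrial transcription factor, had 0.29, and Ppargc1b, another coactivator of that family, was listed in the 2 wild-type libraries alone, with pileups of 19 and 18. A second region of Pprc1 and of Tfam was listed in 2 libraries and 1 library.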

How the data were processed

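ATAC-seq peak lists of 4 G1ER libraries (2 wild-type, 2 Chd7 knockout) were analysed. The authors deposited 1 MACS2 narrowPeak list per library, with a score, a fold enrichment (ratio to local background), and -log10 p and q values at each summit. Per the submitters' processing notes Bowtie2 2.2.1 and MACS2 2.1.0 were used, and the peak names in the deposited lists carry the build GRCm38. Read shift, duplicate removal, control, threshold and total depth were not given in the sources used here.

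Overlapping peaks of the 4 lists were merged, leaving out 2 mitochondrial peaks per list. Pileup and background were solved from the deposited fold enrichment and -log10 p as whole-number pileups (tolerance 0.001), for all but 1 peak per library. This assumes that the caller did not rescale pileups. A region's value is its highest pileup in the library. Regions called in all 4 libraries, 8704 of 8705 with values recovered, were tested in limma 3.58.1 (R 4.3.3, two-sided, Benjamini-Hochberg adjusted) on log2(pileup + 1), centred on library medians, and the scripts were tested on simulated data. Testing only such regions leaves out those lost in 1 genotype. Pileups of 7 to 84 limit precision at members.

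Alternatives were another pseudocount (5), scaling by the lowest background (0.787 to 1.08), deposited fold enrichment, -log10 q of at least 5, a 500 bp gene edge, lists of equal length, summit windows, a replicate block and leaving out each library, with regions at starts of the promoter table added after the data were seen. Named were members with no region, with a region missing from a list, with 2 regions or a shared one, the 5 strongest and weakest and the 10 smallest p-values, and pathway genes with a region missing from a list or among the 3 smallest p-values of their list. An item of the erythroid marker list is not reported here. Members and lists were chosen with earlier results of these data known. Facing starts, base composition, summit offsets, the motif split by calls, medians by role and the promoters printed were chosen after values were seen. Promoter windows were matched by symbol for 69 of 78 members, and not for Mrpl4, Mrpl13, Mrpl15, Mrpl19, Mrpl38, Mrpl54, Mrps28, Mrps34 and Mrps35.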

Additional observations from a re-analysis of the deposited data

Results flagged for a closer look

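At 28 of 51 member regions (54.9%) the knockout minus wild-type difference had opposite directions in the 1 h and the 2 h libraries, against 45.0% of all tested regions. Each time and genotype has 1 library, so the difference between times was not tested. The 2 h difference less the 1 h difference (log2) was -0.040 for the median over the 51 member regions. It was 0.48 at Mrpl10, 0.42 at the 5′-end region of Mrps18b, 0.20 at Mrpl2 and 0.21 at Mrps28. It was -0.16 at Mrpl21 and -0.10 at Mrps14. Among the other members, picked here for their size after the values were seen, Mrpl1 had 0.81 at 1 h and -0.61 at 2 h, Mrpl44 had -0.67 and 0.57, Mrpl12 had -0.60 and 0.46, and Mrpl51 had 0.41 and -0.61.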

How the results depend on the processing

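Scaling by the lowest background gave 2 called members in place of 0 and 70 called regions of 8704 (5 higher, 65 lower in the knockout), and moved the member medians to -0.26 at 1 h and -0.22 at 2 h, against -0.26 and -0.16 over all tested regions. Its SE in limma was 0.255 at each of the 10 members with the smallest p-values, so its p-values do not use each region's own spread. Under this scaling the shared region of Mrpl46 and Mrps11 had -0.027 and the 5′-end region of Mrps18b -0.064, opposite to their main direction. Relative to the shift of -0.21 over all regions they kept it, at 0.18 and 0.14. With the replicate block 2 of all regions and 0 members were called, and Mrpl43 and Mrps18c had limma adjusted p of 0.171 and 0.184. The deviations of same-numbered libraries correlated at 0.0022 over all tested regions and -0.07 over members, so the numbers were not taken to pair the libraries. Over -log10 q of at least 5 the 2 h median was -0.0043, and the differences at Mrps14 and Mrps28 were 0.0057 and 0.0098, again of opposite sign. Leaving out 1 library at a time gave 0 called members and 0 called regions throughout, and 5 to 8 regions called in the wild type alone and 0 to 2 in the knockout alone, since fewer libraries then had to agree. The same counts over gene-edge regions were 259 to 385 and 136 to 295. These were out of 71 to 75 member regions and 7560 to 7653 gene-edge regions. Without the first knockout library, 8 of 75 member regions and 378 of 7565 gene-edge regions were called in the wild type alone. Without the second wild-type library, these were 5 of 71 and 285 of 7560. The wild-type-only count was 2 with a 500 bp edge. The sign also turned in leave-one-out fits, with ranges of -0.23 to 0.10 at Mrpl21 (positive without the second wild-type or, at 0.02, the first knockout library), -0.18 to 0.11 at Mrpl2 (positive without the first wild-type or, at 0.01, the second knockout library), -0.075 to 0.052 at Mrps14 (positive without the second knockout library) and -0.14 to 0.13 at Mrps28 (positive without the first wild-type or, at 0.02, the second knockout library). The cause of these changes was not tested. The member median ran from -0.05 without the first knockout library to 0.03 without the second. Of 167 values at 19 named regions 156 kept their direction, among them all 88 at the 10 members with the smallest p-values. The adjusted p of Mrpl43 ran from 0.00945 to 0.846 over these alternatives, that of Mrps18c from 0.0115 to 0.846 and that of Mrps15 from 0.352 to 0.855. With 2 libraries per genotype and pileups near 20, differences of the size seen at most members lie within the spread between libraries.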

Other observations

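The mitochondrial genome itself, whose products the mitochondrial ribosome makes, had 2 peaks in each list, between 3258 and 3516 bp wide and left out of every comparison above. The authors' fold enrichments of the peak near the start of the mitochondrial sequence were 1.48 and 1.47 in the wild type and 1.29 and 1.26 in the knockout. Those of the peak near its end were 1.63 and 1.48 in the wild type and 1.23 and 1.48 in the knockout. At that peak -log10 q ran from 1.76 in the first knockout library to 15.8 in the first wild-type library. Differences between genotypes at the mitochondrial peaks were not tested.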
